A study of Homo sapiens with 12 samples.

Results

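The genes described here are 9 enzymes that make the building blocks of DNA: TYMS, TK1, DTYMK, DUT, RRM1, RRM2, SHMT1, ATIC and GART. They were chosen by name from the pathways of thymidylate, deoxynucleotide and purine synthesis, with earlier results of these data known. They are 9 of the 60605 genes quantified. Their Ensembl identifiers are ENSG00000176890 (TYMS), ENSG00000167900 (TK1), ENSG00000168393 (DTYMK), ENSG00000128951 (DUT), ENSG00000167325 (RRM1), ENSG00000171848 (RRM2), ENSG00000176974 (SHMT1), ENSG00000138363 (ATIC) and ENSG00000159131 (GART). RNA was sequenced from SBC5 cells, an established line of human small cell lung cancer whose genotype is labelled WT. Olaparib inhibits PARP1 and PARP2, enzymes that mark broken DNA for repair. Vehicle cells received the solvent DMSO and no radiation, and the olaparib group received 1 µM of the drug and no radiation. The radiation group received DMSO and 4 Gy of gamma rays, and the combination group received 1 µM olaparib and 4 Gy. Drug or solvent was given 2 hours before irradiation, and all cells were collected after 3 days. Each of the 4 groups had 3 libraries. The series sets each treatment against vehicle, so that its comparisons ask which genes respond to the drug, to radiation and to both.

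Cells need balanced pools of deoxynucleotides to copy and repair DNA. Ribonucleotide reductase, built from a large subunit (RRM1) and a small subunit (RRM2), turns ribonucleotides into deoxynucleotides and is the rate-limiting step. Thymidylate synthase (TYMS) methylates dUMP to dTMP with a folate cofactor, DUT supplies dUMP and keeps uracil out of DNA, and thymidine kinase TK1 salvages thymidine. Both routes pass through the kinase DTYMK. SHMT1 feeds one-carbon units into folate, and GART and ATIC use folate-borne carbons to build the purine ring. Many of these genes are transcribed most strongly around S phase.

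In units of 1e+06, total estimated counts ran from 19.44 to 38.8 in 9 of the libraries and from 14.3 to 17.73 in the other 3. Those 3, olaparib 2, olaparib 3 and radiation 3, carried a background of reads over silent genes: 404 olfactory receptor genes summed to between 920.2 and 2097.8 counts per 1e+06 counts of the library (CPM), against 354.7 to 501.3 in the 9. They were kept apart by the rule that chose the genes, which left 3 vehicle, 1 olaparib, 2 radiation and 3 combination libraries for the tests. Of 8 small cell lung cancer markers, 6 had a median under 1 CPM in the 9 libraries, among them NEUROD1 (0.815 CPM) and POU2F3 (0.245 CPM). YAP1 had a median of 103 CPM and the neuroendocrine marker SYP one of 21.7 CPM. All 8 summed to 129 to 143 CPM in vehicle and 110 to 127 CPM in the combination. In the test described below, YAP1 fell by 24.7% after the combination (adjusted p = 0.000147), and SYP had a log2 change of -0.41 (adjusted p = 0.0688) with no overlap. Markers of leukocytes summed to 1.25 to 4.41 CPM in the 9 libraries and to 11 to 30.1 CPM in the 3 apart. All 7 fibroblast and endothelial markers together gave 101 to 107 CPM in vehicle and 83.9 to 91 CPM in the combination, most of it PDGFRA (median 84.9 CPM) and COL1A1 (median 13.7 CPM). PDGFRA fell by 29.8% after the combination (adjusted p = 4.75e-06). Whether these marker levels have a part in the differences below was not tested. In bulk RNA, fewer cells that use a gene and less RNA of it per cell cannot be told apart. Nothing in the labels says that libraries of a group came from separate cultures, so the p-values measure the spread between libraries.

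After olaparib with radiation, 4 of the 9 synthesis genes fell and none rose. These were ATIC, the enzyme of the final steps of purine ring synthesis, DUT, TYMS and RRM2. ATIC fell by 48.7% of its vehicle mean and RRM2 fell by 22.1%. Of all 30967 genes tested, 3.26% were called lower in the same comparison (edgeR quasi-likelihood test, adjusted p under 0.05) and 1.53% higher. All 9 genes had a negative log2 change, with a median of -0.57 against a median of 0.02 over all genes tested. Under library size scaling 7 of the 9 were negative, with medians of -0.37 and 0.22. In 6 of the 9 every combination library lay below every vehicle library, a pattern found in 10.4% of all genes tested. The 9 were chosen with earlier results of these data known, so the shares of all genes describe them and do not test the set. Radiation alone lowered ATIC and TYMS (2 of 9, against 0.678% of all genes), and the olaparib library lowered ATIC (1 of 9, against 0.0581%). The 3 comparisons share the vehicle libraries, so their values are set side by side without a measure of likeness. With all 12 libraries in the fit, edgeR called 0 of the 9 genes after the combination, where 4 had an unadjusted p under 0.05, and 0.00314% of 31858 genes.

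**Figure D1:**
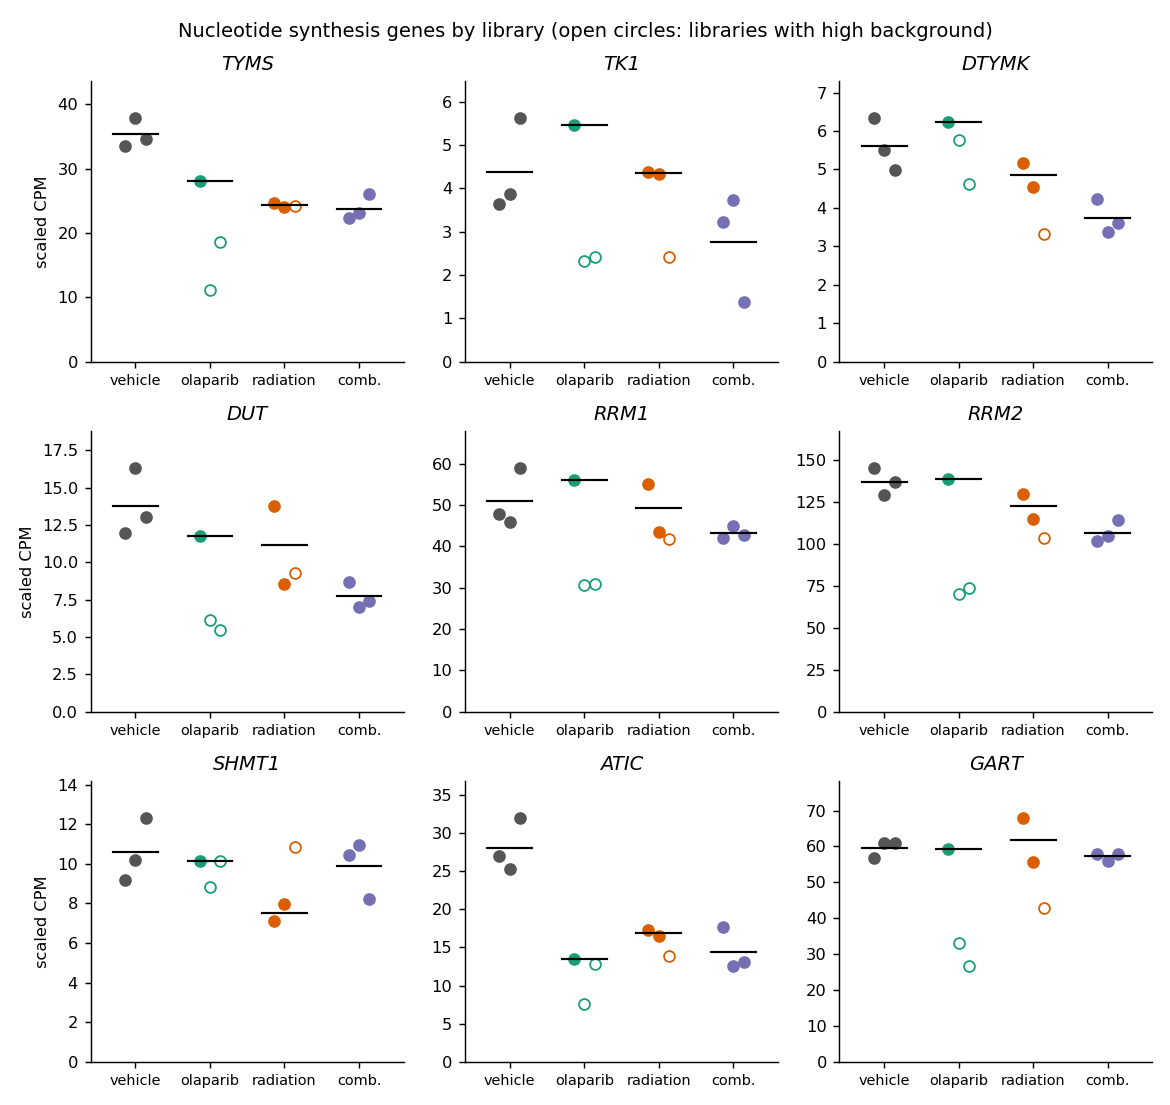
Level of each gene by library, in scaled CPM (y axis from 0), by treatment group on the x axis (comb., combination). Filled circles are the 9 libraries tested, open circles the 3 libraries with high background, and lines the mean of the filled circles. ATIC stood at 25.3 to 32 in vehicle and at 12.5 to 17.7 in the combination, while GART stood at 55.9 to 60.8 in both groups.

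For the 4 genes that fell, the stretch upstream of a RefSeq start is shown around letters known as binding motifs of growth and cell cycle factors, as a description of the genes called lower after the combination. Sequences and positions are RefSeq's, on build GRCh38.p14, plus strand, and capitals mark the motif. ATIC holds the E-box CACGTG in chr2:215312001-215312030, TYMS an E2F-type motif in chr18:657603-657632, and DUT a pair of them in chr15:48332152-48332181 before the last of its 4 listed starts. RRM2 holds CCAAT in each of chr2:10122609-10122628, chr2:10122639-10122658 and chr2:10122666-10122685, and the same letters, gggaaggg, follow it each time.
ATIC E-box: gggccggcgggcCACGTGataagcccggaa
TYMS E2F-type: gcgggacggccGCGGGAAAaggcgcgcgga
DUT E2F-type pair: ctgGCGGGAAAtttcggtTTTGGCGCgctc
RRM2 CCAAT, site 1: ggcgcagCCAATgggaaggg
RRM2 CCAAT, site 2: ggcacagCCAATgggaaggg
RRM2 CCAAT, site 3: accaaagCCAATgggaaggg

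The E-box of ATIC began 46 bases before the start, and the E2F-type motif of TYMS 39 bases before it. Both strands of the 250 bases before each start were searched, in 35116 RefSeq promoters. E2F-type letters (TTTCCCGC, TTTCGCGC, TTTGCCGC or TTTGGCGC) stood in 3 of 16 promoters of the 9 genes (TYMS, DUT and GART) and in 2.8% of all promoters. CCAAT stood in 9 of the 16, among them promoters of TK1, DTYMK, RRM1, SHMT1 and GART, and in 32% of all. Some of the 16 are starts of the same gene that lie a few bases apart and share their sites. Counted by gene, CCAAT stood before at least 1 start of 6 of the 9. The E-box CACGTG stood in 1 of the 16 and in 6.3% of all. The cell cycle homology region, as TTTGAA or TTCGAA, stood in 3 of the 16 (DTYMK, DUT and RRM1) and in 14.3% of all. No motif searched was shared by all 4 genes that fell, and a match describes letters, not a bound site.

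Levels of the 9 genes are given below as scaled CPM, counts per 1e+06 counts of a library after TMM scaling. TYMS, the source of new thymidylate, measured 33.6, 37.9 and 34.5 scaled CPM in vehicle 1, 2 and 3 and 22.3, 23 and 26 in the combination libraries. It was at 24.6 and 24 scaled CPM in radiation 1 and 2 and at 28.1 in olaparib 1. All irradiated libraries of the 9 lay below all vehicle libraries, and olaparib 1 lay between. TYMS fell by 32.8% after the combination (log2 change -0.57, SE 0.12, adjusted p = 0.000416, edgeR). After radiation alone it fell by 31.2% (log2 change -0.54, SE 0.13, adjusted p = 0.0137). This second call was lost without vehicle 2 (adjusted p = 0.124), radiation 1 (0.118) or radiation 2 (0.14), and under library size scaling (log2 change -0.43, adjusted p = 0.0585). With all 12 libraries and the olfactory receptor level as a covariate, neither call was made (adjusted p = 0.0891 for the combination and 0.307 for radiation). In olaparib 1 the log2 change was -0.33 (SE 0.16) and did not pass (adjusted p = 1). In the 3 libraries apart, TYMS measured 11.2 (olaparib 2), 18.6 (olaparib 3) and 24.2 (radiation 3) scaled CPM, all below the vehicle libraries. In these libraries 59, 57 and 45 of 76 related pathway genes, listed below, also lay under every vehicle library.

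TYMS overlaps ENOSF1 and the RNA TYMSOS on the opposite strand in GENCODE 29, and whether the counting used strand is not given in the sources used here. ENOSF1, which encodes a mitochondrial enolase family protein, averaged 20.7 ± 1.72 scaled CPM (SD, n = 3) in vehicle and 22.1 ± 2.95 (SD, n = 3) in the combination. Its log2 change was 0.09 (SE 0.14, adjusted p = 0.883), with overlapping libraries. TYMSOS, looked up after the TYMS values were seen, was at 0.929 to 1.73 scaled CPM in vehicle and 1.09 to 2 in the combination.

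DUT, the hydrolase that turns dUTP into dUMP, measured 12, 16.3 and 13.1 scaled CPM in vehicle 1, 2 and 3 and 8.72, 7.04 and 7.41 in the combination libraries. Radiation 1 and 2 differed from each other, at 13.8 and 8.58, and olaparib 1 was at 11.8. Combination and vehicle did not overlap, whereas radiation 1 lay inside the vehicle range. After the combination DUT fell by 44% (log2 change -0.84, SE 0.19, adjusted p = 0.00196). The adjusted p was 0.058 without vehicle 2, the highest vehicle library (log2 change -0.70). The change after radiation was -0.30 (SE 0.21, adjusted p = 0.699) and in olaparib 1 it was -0.23 (SE 0.26, adjusted p = 1).

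DUT has processed copies elsewhere in the genome, and these held many counts: over the 9 libraries 4 of 8 annotated DUT pseudogenes had 1040 estimated counts, or 36.9% of the number at DUT itself. Their sum was 5.84, 3.71 and 4.16 scaled CPM in vehicle and 3.12, 1.88 and 2.99 in the combination, again without overlap. DUT and its copies added together averaged 18.4 ± 1.5 scaled CPM (SD, n = 3) in vehicle and 10.4 ± 1.46 (SD, n = 3) in the combination. DUT-AS1, an RNA on the opposite strand, averaged 2.04 ± 0.189 (SD, n = 3) and 1.24 ± 0.235 (SD, n = 3) in these groups. The sums and DUT-AS1 were chosen after the DUT values were seen, and how far reads were shared among these genes was not tested.

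DTYMK, which phosphorylates dTMP from both routes, measured 6.35, 5.51 and 4.99 scaled CPM in vehicle 1, 2 and 3 and 4.24, 3.36 and 3.61 in the combination. The groups did not overlap, but the difference did not pass the test (log2 change -0.59, SE 0.27, adjusted p = 0.27). TK1, the salvage kinase, measured 3.64, 3.86 and 5.63 scaled CPM in vehicle and 3.21, 3.72 and 1.38 in the combination. Combination 2 lay above vehicle 1, so the groups overlapped, and combination 3 was the lowest of the 9. Its log2 change of -0.66 had an SE of 0.31 (adjusted p = 0.306), and was -0.35 without combination 3 and -0.44 without vehicle 3. These 2 genes had the fewest counts of the 9, with 29 to 208 estimated counts per library for TK1 and 74.9 to 237 for DTYMK, against 2086 to 5286 for RRM2. Olaparib 1 was above the vehicle mean for both, at 5.47 (TK1) and 6.23 (DTYMK). The radiation libraries gave 4.37 and 4.33 for TK1 and 5.17 and 4.55 for DTYMK. Neither gene passed the test after radiation or in olaparib 1.

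SHMT1, the cytosolic serine hydroxymethyltransferase, measured 9.21, 10.2 and 12.3 scaled CPM in vehicle and 10.5, 10.9 and 8.22 in the combination. The 2 groups overlapped (log2 change -0.10, SE 0.19, 95% interval -0.48 to 0.28). Radiation 1 and 2, at 7.10 and 7.96, lay below all vehicle libraries, as 13.5% of all genes tested did in that comparison. The log2 change after radiation, -0.49 (SE 0.22), did not pass (adjusted p = 0.425). Radiation 3, kept apart, was at 10.8 and inside the vehicle range.

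RRM2, the regulated small subunit of ribonucleotide reductase, measured 145, 129 and 137 scaled CPM in vehicle 1, 2 and 3 and 102, 105 and 114 in the combination. It was at 130 and 115 in radiation 1 and 2 and at 139 in olaparib 1. The combination libraries were the lowest 3 of the 9, while olaparib 1 lay inside the vehicle range. RRM2 fell by 22.1% after the combination (log2 change -0.36, SE 0.08, adjusted p = 0.000921). Scaling by library size alone ended this call (log2 change -0.16, adjusted p = 0.218), where it lay below the median of all genes. The covariate fit ended it too (adjusted p = 0.0996). After radiation the change was -0.16 (SE 0.09, adjusted p = 0.553), and in olaparib 1 it was 0.02 (SE 0.11). RRM2 overlaps AC007240.1, annotated as protein-coding, over 8681 bases of the same strand in the GENCODE release used above. The level of AC007240.1 is not given here, and how far reads were shared between it and RRM2 was not tested.

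RRM1, the large subunit that holds the active site, measured 47.9, 45.9 and 59 scaled CPM in vehicle and 41.9, 45 and 42.8 in the combination. The groups did not overlap, by a gap from 45 to 45.9. Its log2 change of -0.24 (SE 0.10) did not pass (adjusted p = 0.217), and was -0.12 without vehicle 3. RRM1 was at 55.2 and 43.5 in radiation 1 and 2 and at 56 in olaparib 1, and neither comparison passed. RRM2B, the alternative small subunit induced by p53, averaged 50 scaled CPM in vehicle and 56.1 in the combination, with a log2 change of 0.17 (SE 0.09, adjusted p = 0.453).

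ATIC showed the largest fall of the 9 genes in each comparison with vehicle. It measured 27, 25.3 and 32 scaled CPM in vehicle 1, 2 and 3, and 17.7, 12.5 and 13.1 in the combination libraries. Radiation 1 and 2 gave 17.3 and 16.5, and olaparib 1 gave 13.5. Every treated library, including the 3 apart at 7.58 (olaparib 2), 12.9 (olaparib 3) and 13.9 (radiation 3), lay below every vehicle library. The 3 apart were low for most related pathway genes listed below, however. Of 76 such genes, 59, 57 and 45 lay under every vehicle library in olaparib 2, olaparib 3 and radiation 3. With all 12 libraries in the fit, the median log2 change of all genes was 0.39 for olaparib and 0.12 for radiation. ATIC fell by 48.7% after the combination (log2 change -0.96, SE 0.15, adjusted p = 1.21e-06). It fell by 39.9% after radiation (log2 change -0.74, SE 0.16, adjusted p = 0.00496), and in olaparib 1 it fell by 51.8% (log2 change -1.05, SE 0.21, adjusted p = 0.00943). The radiation call was lost without vehicle 3 (adjusted p = 0.0656), radiation 1 (0.0656) or radiation 2 (0.0996), and the olaparib call without vehicle 3 (0.0712). The olaparib value rests on 1 library, assumed to vary like the other groups.

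GART, which catalyses 3 earlier reactions of the same pathway, measured 56.8, 60.8 and 60.8 scaled CPM in vehicle and 58, 55.9 and 57.8 in the combination. The groups overlapped, and the 95% interval of the log2 change ran from -0.23 to 0.12 (change -0.06, SE 0.09). Radiation 1 and 2 gave 67.9 and 55.7 and olaparib 1 gave 59.2, also on both sides of or inside the vehicle range. Its sign turned under library size scaling (log2 change 0.14), as did that of SHMT1 (0.10). In the libraries apart GART measured 33.2 (olaparib 2), 26.8 (olaparib 3) and 42.9 (radiation 3), below all of the 9. SON, which encodes a splicing cofactor and overlaps GART on the opposite strand, had a log2 change of -0.04 (SE 0.07) after the combination. The other listed neighbours, which do not include AC007240.1 at RRM2, also did not pass. SMCR8, which overlaps SHMT1, had a change of 0.18 (SE 0.08, adjusted p = 0.254). AFMID had one of 0.12 (SE 0.21) and DONSON one of 0.09 (SE 0.15).

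**Figure D2:**
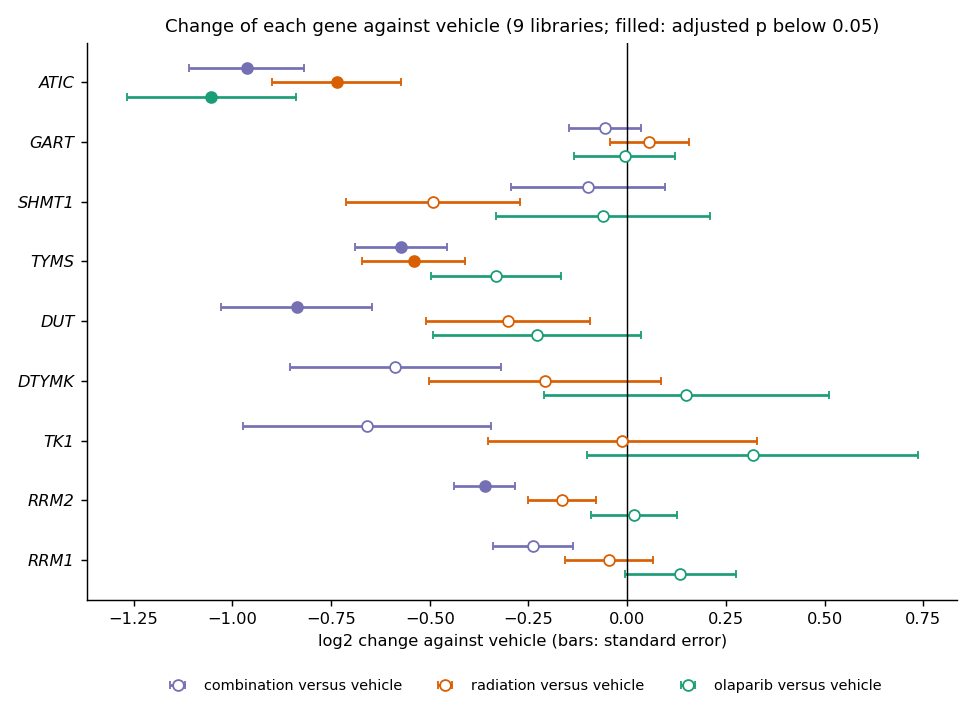
Log2 change of each gene against vehicle (x axis) with its standard error, from 1 edgeR fit over 9 libraries, for the combination (3 libraries), radiation (2) and olaparib (1); filled circles have an adjusted p below 0.05. ATIC is filled in all 3 comparisons, TYMS in the combination and radiation, and DUT and RRM2 in the combination.

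Whether olaparib added to radiation was asked by setting the combination against radiation alone. No gene of the 9 passed that test with edgeR, DESeq2 or limma-voom, where 2 (DUT and RRM2) had an unadjusted p under 0.05 in edgeR and 0.568% of all genes were called in either direction. DUT had a log2 change of -0.54 (SE 0.21, adjusted p = 0.322) and RRM2 one of -0.20 (SE 0.09, adjusted p = 0.429). The DUT value rests on which radiation library is used, at -0.15 without radiation 1 and -0.86 without radiation 2. TYMS differed by -0.03 (95% interval -0.29 to 0.22) and ATIC by -0.23 (95% interval -0.55 to 0.09). The interaction, which asks whether the combination differs from the sum of both log2 changes, was called for none of the 9 by the same 3 tools and for 0.2% of all genes. ATIC came nearest, with an interaction of 0.83 (SE 0.26, unadjusted p = 0.00262, adjusted p = 0.293, the 1 gene of 9 under 0.05 unadjusted). Its log2 falls in olaparib 1 and after radiation add up to more than the fall after both. DESeq2 gave an adjusted p to only 6352 genes for the combination against radiation and to 2149 for the interaction. It could not call a gene without one, so the lack of a DESeq2 call is no negative result for such a gene.

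Around these genes, 77 further genes of nucleotide metabolism and S phase were listed and 76 tested. After the combination 3 of them rose and 5 fell. Of all genes tested, 1.53% were called higher and 3.26% lower, the shares to set beside each list below. Library size scaling turned the split of the listed genes to 10 higher and 1 lower, and that of all genes to 7.35% higher and 1.03% lower. Of 16 purine genes 2 fell and none rose, and all 16 had a negative log2 change, with a median of -0.20 against 0.02 for all genes. Under library size scaling, where all genes have a median of 0.22, the purine list had 8 negative and 8 positive changes and a median of 0.0045. The 2 purine genes that fell, under TMM scaling, were IMPDH1 and PAICS. IMPDH1, which commits IMP to guanine nucleotides, had a log2 change of -0.50 (SE 0.12, adjusted p = 0.00632). Its counterpart IMPDH2, in the same list, had a log2 change of -0.22 (SE 0.08) and did not pass (adjusted p = 0.149), with overlapping libraries. PAICS, which acts between the GART and ATIC steps, had one of -0.20 (SE 0.06, adjusted p = 0.049). The IMPDH1 call was lost without vehicle 3 (adjusted p = 0.0527) or combination 1 (0.0529), under library size scaling (log2 change -0.29, adjusted p = 0.148) and with the covariate (0.141). The PAICS call was lost in 12 of 19 alternatives, among them those without vehicle 1, 2 or 3 or combination 1, 2 or 3 (adjusted p from 0.0723 to 0.205), and its log2 change was -0.00025 under library size scaling. PPAT, the entry enzyme, had a change of -0.14 (SE 0.07, adjusted p = 0.345). Of 9 pyrimidine genes 1 fell, CAD, the enzyme of the first steps, from 26.2 ± 1.9 to 17.8 ± 2.42 scaled CPM (SD, n = 3 each). Its log2 change was -0.56 (SE 0.13, adjusted p = 0.00404), a call that ended when combination 2 was left out (adjusted p = 0.0543), under library size scaling (log2 change -0.36, adjusted p = 0.0872) and with the covariate (0.0502). The median of its list was -0.24, and -0.04 under library size scaling.

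Of 18 folate and one-carbon genes 2 rose and none fell, with a median log2 change of 0.11. MTHFD2, the mitochondrial folate dehydrogenase, measured 159, 188 and 194 scaled CPM in vehicle and 267, 245 and 234 in the combination, without overlap. It rose by 38% (log2 change 0.46, SE 0.07, adjusted p = 4.25e-06). PSAT1, an enzyme of serine synthesis, was at 6.62, 5.64 and 7.20 in vehicle and at 11.5, 16.4 and 14.5 in the combination (log2 change 1.13, SE 0.19, adjusted p = 1.84e-05). SHMT2, the mitochondrial counterpart of SHMT1, had a change of 0.11 (SE 0.15, adjusted p = 0.862).

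Among 13 tested genes of deoxynucleotide salvage and turnover, NME2 alone passed. This nucleoside diphosphate kinase measured 61, 63.5 and 66 scaled CPM in vehicle and 40.9, 39.5 and 41.6 in the combination (log2 change -0.64, SE 0.09, adjusted p = 4.52e-07). SAMHD1, which degrades deoxynucleotides, had a change of 0.03 (SE 0.14, adjusted p = 0.976), and DCK, the deoxycytidine kinase, one of -0.16 (SE 0.09, adjusted p = 0.412). Of 20 S phase and cell cycle genes, cyclin gene CCNE2 rose (0.73, SE 0.18, adjusted p = 0.00465) and CCNA2 fell (-0.32, SE 0.09, adjusted p = 0.0268), the latter call lost in 8 of 19 alternatives, among them those without vehicle 1 or 2 or combination 1 or 2 (adjusted p from 0.0677 to 0.215) and library size scaling (log2 change -0.12). The CCNE2 call was lost without vehicle 2 (adjusted p = 0.053) or combination 3 (0.0694), and the list's median was 0.04. PCNA, the replication clamp, had a log2 difference of -0.15 (SE 0.18, adjusted p = 0.842), and E2F1 one of -0.12 (SE 0.39, adjusted p = 0.961). CDKN1A, which encodes the cyclin kinase inhibitor p21, was at 0.48 to 0.98 scaled CPM in vehicle and 1.95 to 2.82 in the combination (log2 change 1.57, SE 0.52, adjusted p = 0.0649).

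**Figure D3:**
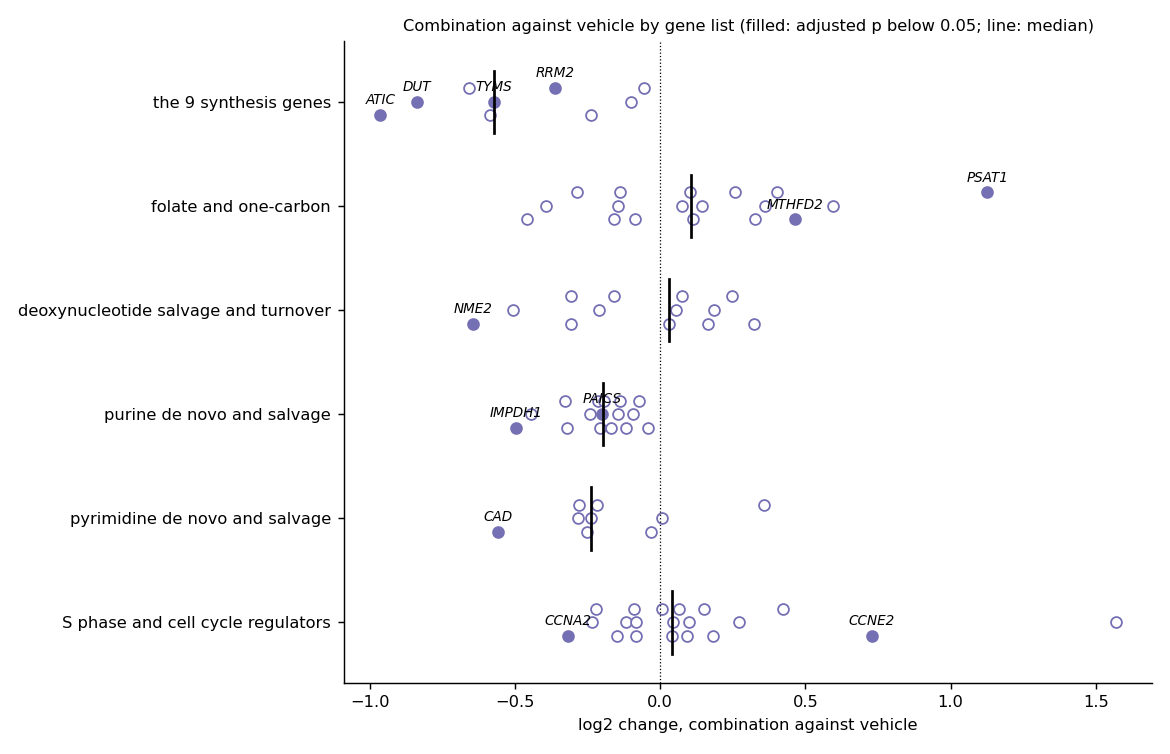
Log2 change in the combination against vehicle (x axis) for the 9 synthesis genes and 76 tested genes of 5 related lists (rows), from 3 libraries each. Filled, named circles have an adjusted p below 0.05, and black lines mark list medians, which run from -0.57 for the 9 genes to 0.11 for folate genes.

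After radiation alone, MTHFD2 was the 1 listed pathway gene called: it rose by 30.8% (log2 change 0.39, SE 0.08, adjusted p = 0.00254), where 0.42% of all genes were called higher. That call was lost without vehicle 1 (adjusted p = 0.0722) or radiation 1 (0.17). In olaparib 1 edgeR called 0 of the 76, where 5 had an unadjusted p under 0.05, DESeq2 called 0 and limma-voom 1. For the combination against radiation edgeR called 0 (9 unadjusted), DESeq2 3 and limma-voom 0, and for the interaction 0 (7 unadjusted), 2 and 1. DESeq2 gave an adjusted p to 3350, 6352 and 2149 genes in these 3 comparisons, against 30967 in edgeR. Listed genes without one could not be called by it, so its counts are not out of 76.

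Ratios of estimated counts within a library do not depend on scaling, and 4 pairs were formed after the values were seen, as a description. ATIC per GART was 0.476, 0.416 and 0.526 in vehicle and 0.305, 0.224 and 0.226 in the combination. It was 0.254 and 0.296 in radiation 1 and 2 and 0.229 in olaparib 1, all below vehicle, but olaparib 3, kept apart, was at 0.48. RRM2 per RRM2B was 3.17, 2.42 and 2.71 in vehicle and 1.88, 1.95 and 1.88 in the combination, without overlap. RRM2 per RRM1 overlapped, at 2.32 to 3.04 in vehicle and 2.33 to 2.67 in the combination. SHMT1 per SHMT2, the cytosolic and mitochondrial forms, overlapped too, at 0.5, 0.632 and 0.648 in vehicle and 0.502, 0.545 and 0.486 in the combination.

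**Figure D4:**
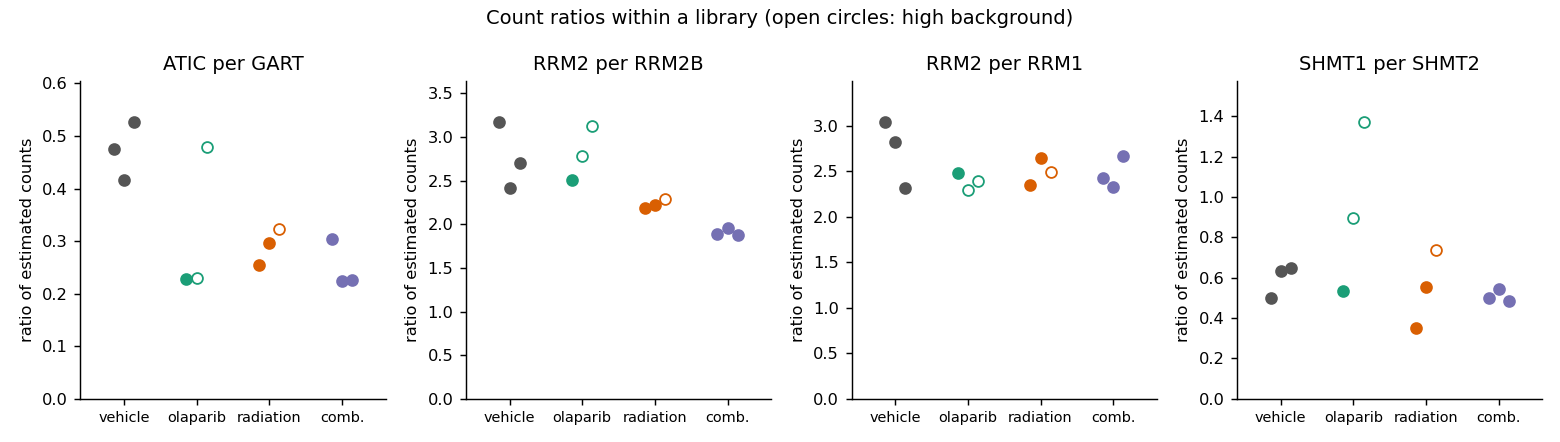
Ratio of estimated counts of 2 genes within each library (y axis, from 0) by treatment group (x axis); filled circles are the 9 libraries tested and open circles the 3 with high background. Combination libraries lie below vehicle for ATIC per GART and RRM2 per RRM2B, and overlap it for RRM2 per RRM1 and SHMT1 per SHMT2.

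Across the 9 libraries, the levels of the 9 genes followed each other unevenly. Over 9 libraries of 4 groups, which share their group differences and scaling, Pearson's r of log2 levels was highest for DTYMK with RRM2 (0.87) and lowest for SHMT1 with GART (-0.30). TYMS and ATIC had r = 0.78. Of 8341 genes with a mean of at least 10 scaled CPM, those most like ATIC were HSPA5, an endoplasmic reticulum chaperone (r = 0.96), PDIA3 (0.95) and YBX3 (0.95). For TYMS they were TTC28, STAU2 and WASF2 (0.96, 0.95 and 0.95), and for RRM2 MTMR1, FAM9C and LRP6 (0.99, 0.98 and 0.97). For DUT they were ENSG00000288725, ARFGEF1 and BRD7 (0.97, 0.96 and 0.96), for RRM1 HYOU1, PA2G4 and MYL12B (0.98, 0.96 and 0.96), and for GART MED21, VPS29 and BAZ1B (0.97, 0.94 and 0.93). TK1 was most like HDAC6, KIAA1143 and AHSA1 (0.97, 0.95 and 0.95), DTYMK most like PAWR, DNAJC19 and ALDH5A1 (0.99, 0.97 and 0.97), and SHMT1 most like AKR1E2, ENSG00000285756 and WDR7 (0.92, 0.92 and 0.91). Picking the 3 highest r from 8341 genes over 9 libraries favours high values, so these likenesses are only a description. HSPA5 itself averaged 845 scaled CPM in vehicle and 524 in the combination.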

How the data were processed

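RNA of 12 SBC5 libraries was prepared as stranded total RNA libraries, per the labels' protocols, and quantified with kallisto 0.46.1, per the submitters' processing notes. The authors deposited estimated counts per Ensembl gene, neither scaled for depth nor for length. No source used here gives the transcriptome release, genome build or strand setting. After 44 rows of pseudoautosomal Y copies were merged with the X gene, 60605 genes remained, and estimates were rounded to whole numbers. The genes and lists were chosen with earlier results of these data known, and so was the choice to keep 3 libraries apart. Tests used R 4.3.3 and edgeR 4.0.16 on 9 libraries: the default count filter (30967 genes), TMM scaling, a mean for each group and the robust quasi-likelihood F-test. P-values were adjusted over all genes by Benjamini and Hochberg's method, with a threshold of 0.05. The SE was taken as the log2 change divided by the root of F. Scaled CPM is the count per 1e+06 counts of a TMM-scaled library, for the 3 libraries apart on the same genes and reference. Levels are not compared between genes, since lengths are unknown. The fit was tried on simulated data for the combination against vehicle only, with the same dispersion set for all genes. The other comparisons and the background of the libraries apart were not simulated. Named are the 9 genes, pathway genes past the threshold (at most 4 a list and comparison), a fixed set of pathway and overlapping genes whatever their values (some are not reported here), pseudogenes by symbol, and the 3 genes most like each of the 9. IMPDH2, outside this rule, is named as the counterpart of IMPDH1. Genes matched in 9 of 9 cases to RefSeq promoters. Alternatives were all 12 libraries, the same with the olfactory receptor level as covariate, DESeq2 size factors, library size only, no filter, 1 CPM in 3 libraries, DESeq2 1.42.0, limma-voom (limma 3.58.1), the compared groups alone, a replicate block and each library left out.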

Additional observations from a re-analysis of the deposited data

Results flagged for a closer look

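Genes of olfactory receptors, silent in most tissues and outside all comparisons here, summed to 1897.1 CPM in olaparib 2, 2097.8 CPM in olaparib 3 and 920.2 CPM in radiation 3. The vehicle libraries held 354.7 to 432.7 CPM over the same 404 genes, and this difference from the controls is why these libraries are singled out. The same 3 libraries had the lowest TMM-scaled levels of GART of the 12, at 33.2, 26.8 and 42.9 scaled CPM. Their part in the levels of the 9 synthesis genes was not tested.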

How the results depend on the processing

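With all 12 libraries, edgeR called 0 of the 9 genes and 0 pathway genes in each comparison. The log2 changes after the combination stayed close (ATIC -0.96, DUT -0.84, TYMS -0.57, RRM2 -0.36), with larger SEs (0.24, 0.30, 0.26 and 0.25). With the olfactory receptor covariate, 2 of the 9 genes and 5 pathway genes were called after the combination, 1 of the 9 after radiation and 0 for olaparib. Library size scaling left 1 of the 9 after radiation. DESeq2 called 0 of the 9 for olaparib, where it gave ATIC no adjusted p. For pathway genes after radiation, against 1 in the report, DESeq2 size factors, library size scaling, no count filter and limma-voom each called 2 and DESeq2 called 3. For olaparib limma-voom called 1, for the combination against radiation DESeq2 called 3, and for the interaction DESeq2 called 2 and limma-voom 1, against 0 in each case in the report. Under library size scaling the split of all genes after the combination turned from 475 higher and 1010 lower to 2275 higher and 319 lower.

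Leaving out 1 library at a time gave 3 to 4 of the 9 genes after the combination, 0 to 2 after radiation (0 without radiation 1 or radiation 2, 1 without vehicle 2 or vehicle 3) and 0 to 1 for olaparib (0 without vehicle 3). Pathway genes numbered 5 to 11 after the combination (5 without combination 1), 0 to 1 after radiation (0 without vehicle 1 or radiation 1), 0 to 2 for the combination against radiation and 0 to 1 for the interaction (both highest without radiation 2). With the replicate number as a block, 4, 2, 1, 0 and 0 of the 9 genes were called in the 5 comparisons, as without it. The numbers did not pair vehicle with combination libraries, whose same-numbered deviations had r of 0.021, -0.058 and -0.029, and the other groups were not checked. Of 7 called changes none turned its sign under any alternative. Of 38 uncalled changes of the 9 genes, 18 took another sign in at least 1 alternative (44 of 696 values) and none gained a call. Depth limits TK1 most, with 29 estimated counts in its lowest library.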
